A study of Mus musculus with 294 samples.

Results

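The transcription factors Twist1, Twist2, Prrx1, Prrx2, Snai1, Snai2, Zeb1 and Zeb2, 4 pairs of related genes known for their part in mesenchyme, were examined in single neural crest cells of the embryonic mouse heart. The set was taken by gene name, and 8 of 8 names were rows among the 15124 genes of the deposited table of raw counts. The study collected single cells from the region of the outflow tract septum of mouse embryos of the genotype Wnt1-Cre; R26-EYFP, aged E17.5, E14.5, E12.5 or E11.5. Every cell carried both alleles: Wnt1-Cre acts where the Wnt1 promoter is active, in the dorsal neural tube and early neural crest, and switches on EYFP for good in those cells and their descendants. The labels name no treatment, and all cells were sorted for EYFP and captured on a microfluidic chip. The labels give no age, animal or chip for a single cell, so all cells formed 1 group, which counted as 1 sample, and no test between groups of cells was made.

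Neural crest cells arise in an epithelium, leave it by an epithelial-to-mesenchymal transition and migrate into the pharyngeal arches and the heart, where they contribute to the septum of the outflow tract, the cushions and the smooth muscle of the great arteries. Snail and Zeb proteins are zinc finger repressors that bind E-boxes, short DNA elements of the form CANNTG, and silence epithelial genes such as the one for E-cadherin. Twist proteins are basic helix-loop-helix factors that bind E-boxes as dimers, often with E proteins, and Prrx proteins are paired-related homeodomain factors of limb, face and heart mesenchyme.

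Of the 8 genes, 6 had promoter entries in the RefSeq table (GRCm38.p6), with 9 windows of 250 bases before a start site. The windows were not all separate: 4 belonged to Zeb2, and those at chr2:45113254-45113503 and chr2:45113280-45113529 shared most of their bases. Since several of these proteins bind E-boxes, the windows were searched for CANNTG, which reads the same on both strands. Only the Snai1 window held a CANNTG, whereas 66.22% of all 32851 windows in the table did. Its letters were CACCTG, the form favoured by Snail and Zeb proteins, and 17.22% of all windows held CACCTG or its reverse complement CAGGTG. The other element searched was the CCAAT box, as CCAAT or ATTGG to cover both strands, which 33.85% of all windows held. The windows of Snai1, Twist1 and Twist2 each held 1, at 84, 89 and 63 bases before the start, and 1 of the 4 Zeb2 windows held 2. The Snai1, Twist1 and Twist2 windows are printed because they show the E-box and compare the Twist paralogs. Of the 4 pairs, these differed most in the share of cells that detected them. Capitals mark the E-box and the CCAAT boxes, and each window is given 5′ to 3′ on the plus strand, at chr2:167537945-167538194 for Snai1, chr12:33957421-33957670 for Twist1 and chr1:91801211-91801460 for Twist2.
Snai1: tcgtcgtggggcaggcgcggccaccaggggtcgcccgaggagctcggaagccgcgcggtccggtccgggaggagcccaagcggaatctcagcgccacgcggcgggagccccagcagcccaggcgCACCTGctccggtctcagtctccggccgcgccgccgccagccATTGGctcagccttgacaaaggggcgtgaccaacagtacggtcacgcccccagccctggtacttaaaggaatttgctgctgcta
Twist1: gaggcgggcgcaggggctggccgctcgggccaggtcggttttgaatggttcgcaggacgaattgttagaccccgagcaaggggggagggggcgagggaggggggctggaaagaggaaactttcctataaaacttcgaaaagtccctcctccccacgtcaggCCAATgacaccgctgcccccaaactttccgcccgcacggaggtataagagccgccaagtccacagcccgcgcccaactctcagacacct
Twist2: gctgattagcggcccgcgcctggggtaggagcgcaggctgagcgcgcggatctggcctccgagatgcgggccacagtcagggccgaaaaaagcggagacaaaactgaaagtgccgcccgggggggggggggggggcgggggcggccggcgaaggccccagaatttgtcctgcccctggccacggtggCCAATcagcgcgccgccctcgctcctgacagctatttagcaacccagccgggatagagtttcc
The windows held 27, 18 and 23 CG pairs in that order, against a median of 6 over all windows. A match of letters is a description and not a binding site.

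Read totals ranged from 34046 to 3033857 per cell, with a median of 1204543, and 2041 to 8805 genes had a read. Levels are given as CPM, the reads of a gene per 1000000 reads of the cell, and a gene was taken as detected at 10 CPM or more. Each share of cells is followed by its exact 95% interval (Clopper-Pearson), which covers counting error only, because several reads can stem from 1 molecule and no molecular identifier tells them apart. Cell names begin with a digit from 1 to 7, which split the cells into name series of 58, 48, 38, 38, 34, 34 and 44 cells. The labels do not say what the digit stands for, and name series were not treated as study groups. Series 1 stood apart: 2051 genes had a read in each of its cells, and 67 genes in every cell of the study. Of 15 listed mesenchymal genes, 13 were detected in at least 50% of cells, from Vim in 100% and Sparc and Col3a1 in 99.7% each to Cdh2 and Cdh11 in 75.2% each and Tnc in 56.1%. The other 2 were Lef1 at 30.3% and S100a4 at 8.503%. Epithelial genes were rare, with 10 of 20 listed genes measured, 7 of them under 5% of cells, Cdh3 highest at 23.5% and Ocln detected in 0 cells, a count that allows a share of up to 1.25%.

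Prrx1 was the factor found in most cells, and Twist2 the one found in fewest. Prrx1 was detected in 73.5% of cells (68.03% to 78.4%) and Twist1 in 59.2% (53.3% to 64.9%). Zeb1 and Zeb2 were each detected in 53.7% (47.9% to 59.6%). Prrx2 and Snai2 were each detected in 46.9% (41.1% to 52.8%), Snai1 in 42.5% (36.8% to 48.4%) and Twist2 in 13.6% (9.90% to 18.1%). So 4 of the 8 factors were detected in at least 50% of cells, a level that 14.4% of all genes in the table reached. The interval of Prrx1 lay above all others and that of Twist2 below, whereas from Twist1 to Snai1 each interval overlapped with that of its neighbour in this order.

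Shares take no account of transcript length, and the long Zeb transcripts yield more reads per molecule than short ones. Divided by merged exon length, the mean level over all cells was highest for Snai2, at 103.7 CPM per kb. Twist1 followed at 59.6 CPM per kb and Prrx2 at 49.4, then Snai1 at 28.3, Prrx1 at 19.6, Zeb1 at 10.2, Zeb2 at 5.24 and Twist2 at 5.004. With the longest coding transcript as the length, Prrx2 at 67.2 CPM per kb passed Twist1 at 59.6, Prrx1 at 33.2 passed Snai1 at 28.3, and Zeb2 moved to 11.5 with Twist2 at 6.29. Prrx1 was thus the most widely detected factor but a middle one per length, and Snai2, detected in under 50% of cells, had the highest level per length.

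Positions of the genes are from GENCODE M21 on GRCm38. Twist1 (ENSMUSG00000035799.6) lies at chr12:33957671-33959829 on the plus strand, and Twist2 (ENSMUSG00000007805.4) at chr1:91801461-91848028 on the plus strand. Prrx1 (ENSMUSG00000026586.16) lies at chr1:163245119-163313710 on the minus strand, and Prrx2 (ENSMUSG00000039476.13) at chr2:30834972-30881251 on the plus strand. Snai1 (ENSMUSG00000042821.7) lies at chr2:167538195-167542814 and Snai2 (ENSMUSG00000022676.7) at chr16:14705852-14709385, both on the plus strand. Zeb1 (ENSMUSG00000024238.15) lies at chr18:5591860-5775467 on the plus strand, and Zeb2 (ENSMUSG00000026872.17) at chr2:44983632-45117395 on the minus strand. Antisense genes share exon bases with some of them: Gm29100 with 46.5% of the exon length of Twist2, Zeb2os with 3.27% of that of Zeb2 and Gm10125 with 1.93% of that of Zeb1. Whether the counting used strand is not given in the sources used here, so such reads cannot be told apart from those of the factor.

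In the cells, most factors were either near 0 or well above it. Twist1, the bHLH factor, ranged from 0 to 1240 CPM with a median of 27.6, and 27.2% of cells had no read of it. Its paralog Twist2 had a median of 0 and a highest value of 672.2 CPM, and 80.6% of cells had no read. The 10% of cells with the highest Twist2 values held 93.1% of its summed CPM, against 50.3% for Twist1. Twist2 was therefore a gene of few cells, with 15 cells at 100 CPM or more against 88 for Twist1.

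Prrx1, a homeodomain factor of mesenchyme, ranged from 0 to 1771 CPM with a median of 100.7. It was at 100 CPM or more in 50% of cells. Its paralog Prrx2 ranged from 0 to 1152 CPM with a median of 3.22, and it was at 100 CPM or more in 28.6% of cells. The Prrx genes thus overlapped over almost their whole range, with Prrx1 present in more of the cells.

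Snai1, the repressor named for the fly gene snail, ranged from 0 to 925 CPM with a median of 3.26, and among the cells that detected it the median was 56.1 CPM. Snai2, also known as Slug, ranged from 0 to 10257 CPM with a median of 6.64. Among the cells that detected it the median was 298 CPM. Snai2 was therefore high where it was present: 46.9% of cells detected it and 35.7% held it at 100 CPM or more, whereas for Snai1 these shares were 42.5% and 12.9%. The highest Snai2 value came from 1 cell of series 4.

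Zeb1 ranged from 0 to 2236 CPM with a median of 13.4, and its median among detecting cells was 93.9 CPM. Zeb2 ranged from 0 to 2126 CPM with a median of 18.4, and its median among detecting cells was 98.5 CPM. The Zeb paralogs, large zinc finger and homeodomain repressors, were close to each other in share, median and range. Each was at 100 CPM or more in a similar share of cells, 25.9% for Zeb1 and 26.5% for Zeb2.

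**Figure D1:**
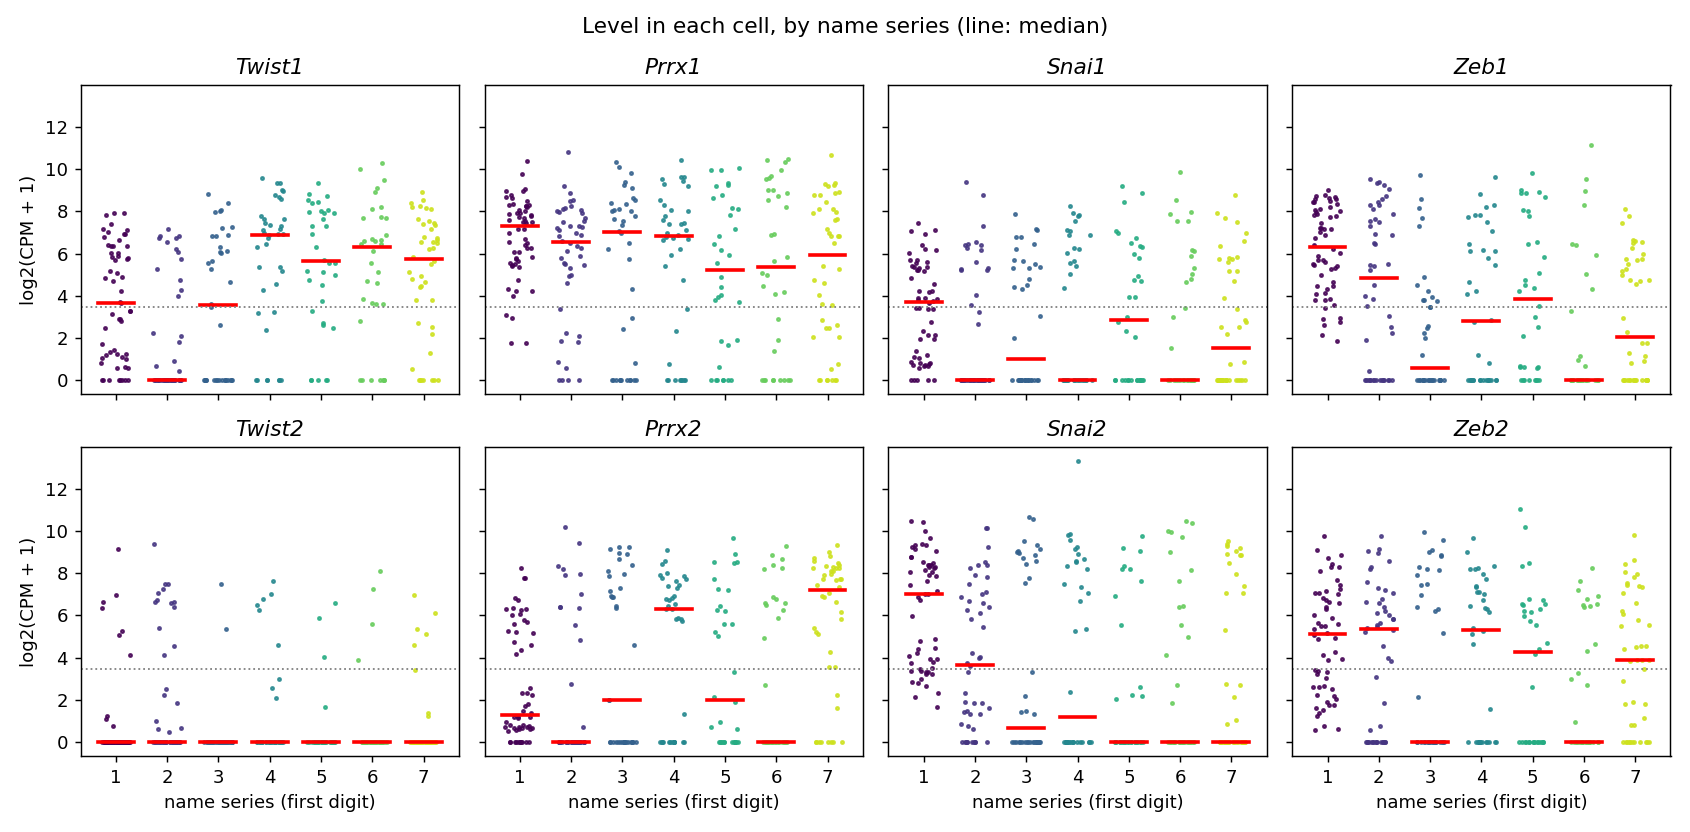
Level of each factor in each cell as log2(CPM + 1), by name series, with 1 point per cell and the series median as a red line; the dotted line is 10 CPM. Twist2 has a median of 0 in each of the 7 series, Prrx1 lies mostly above the dotted line, and in series 1 Prrx1, Snai2, Zeb1 and Zeb2 have 0 cells at 0.

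The name series differed in which factors they held. Twist1 was detected in 51.7%, 27.1% and 52.6% of cells in series 1 to 3. In series 4 to 7 it was detected in 73.7%, 73.5%, 76.5% and 72.7%. Series 2 was the low one, with an interval of 15.3% to 41.9% that lay under the intervals of series 4 to 7, of which the lowest bound was 55.6%. The median Twist1 level was 0 in series 2 and 118.9 CPM in series 4, with highest values of 143.8 and 762.98 CPM.

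Twist2 ran differently, with its largest share in the very series where Twist1 was lowest. Twist2 was detected in 27.1% of series 2 cells (15.3% to 41.9%) and in 5.26% to 15.8% of cells elsewhere. These intervals overlapped, for example with 6.02% to 31.3% in series 4. In series 2 the paralogs were each detected in 13 of 48 cells.

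Prrx1 was frequent in every series. It was detected in 93.1% of series 1 cells (83.3% to 98.1%), in 77.1% of series 2 and in 63.2% to 71.1% of series 3 to 7. Prrx2 was detected in 36.2%, 25%, 47.4%, 63.2%, 44.1%, 41.2% and 77.3% of cells in series 1 to 7. For Prrx2, series 7 (62.2% to 88.5%) lay above series 1 (23.99% to 49.9%) and series 2 (13.6% to 39.6%) with no overlap of the intervals.

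Snai1 shares lay between 33.3% and 51.7% in the 7 series, all with overlapping intervals. Snai2 was detected in 77.6% of series 1 cells (64.7% to 87.5%), in 52.1% of series 2 and in 26.5% to 47.4% of series 3 to 7. Zeb1 was likewise most frequent in series 1, at 87.9% (76.7% to 95.01%), with 58.3% in series 2 and 26.5% to 52.9% in series 3 to 7. Zeb2 was detected in 62.1% of series 1, in 32.4% of series 6 (17.4% to 50.5%) and in 44.7% to 60.4% of the others.

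Low values moved with series 1. In that series, 0 cells had no read of Prrx1, Snai2, Zeb1 or Zeb2. Cells with a read but under 10 CPM made up 44.8% of series 1 for Prrx2, 39.7% for Snai1, 37.9% for Zeb2 and 34.5% for Twist1. Without series 1, Snai2 was detected in 39.4% of cells and Zeb1 in 45.3%, both below their intervals over all cells, and Prrx1 in 68.6%, Zeb2 in 51.7%, Snai1 in 40.3%, Prrx2 in 49.6%, Twist1 in 61.02% and Twist2 in 13.98%, all inside theirs. The part of this low level in the Snai2 and Zeb1 shares of series 1 was not tested.

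**Figure D2:**
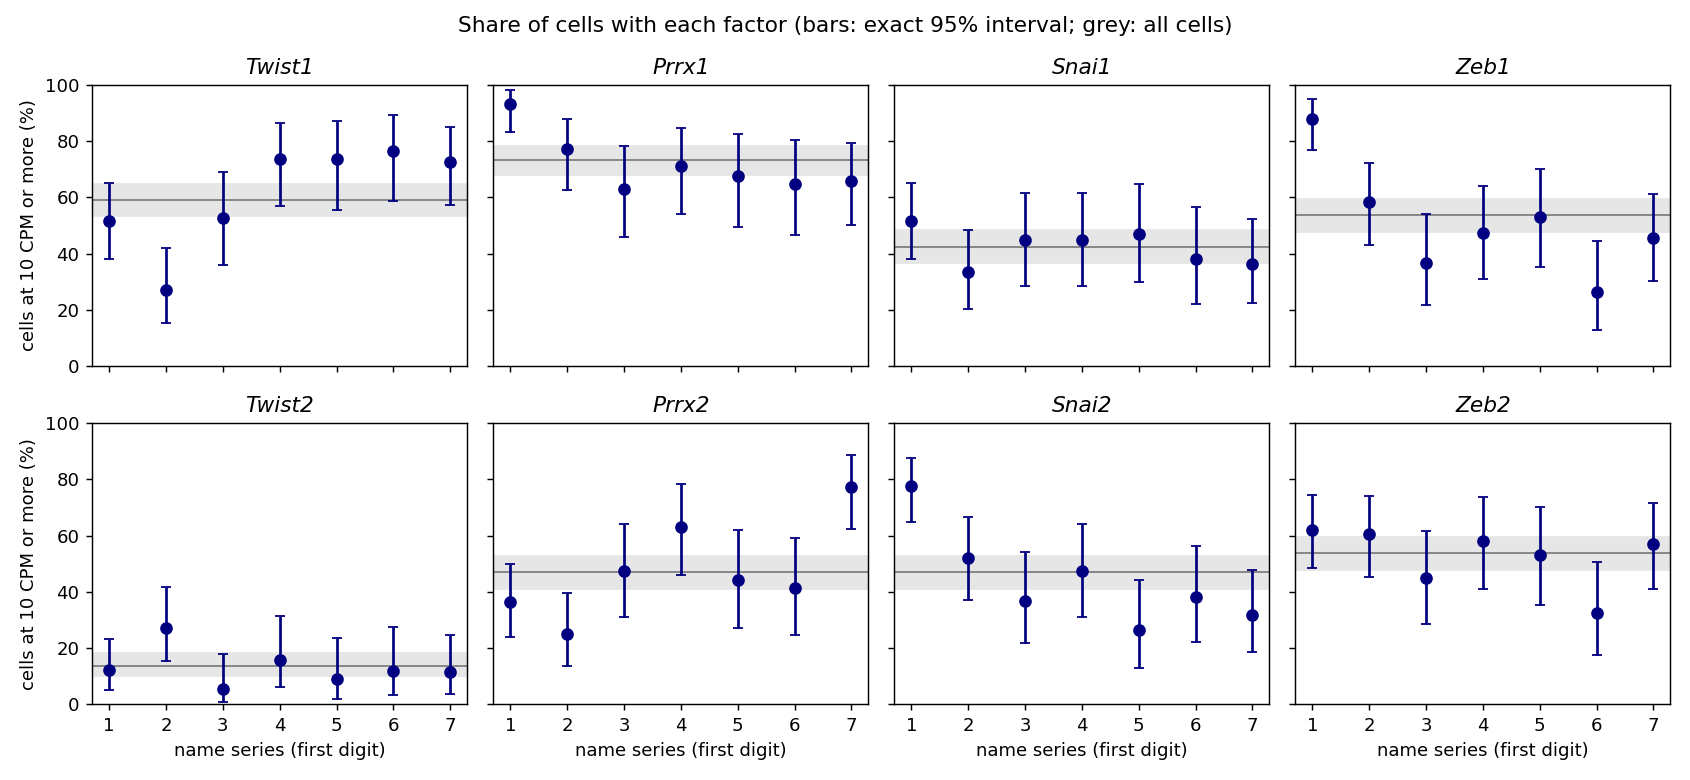
Share of cells with each factor at 10 CPM or more, in percent, by name series, with exact 95% intervals as bars; the grey line and band are the share over all cells and its interval. Twist1 is low in series 2 at 27.1%, Prrx2 is high in series 7 at 77.3%, and Snai2 and Zeb1 are high in series 1 at 77.6% and 87.9%.

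Mean levels spread over the series by 1.82-fold for Prrx1 up to 6.31-fold for Twist1, taken as the highest over the lowest series mean with 10 CPM added to both. Twist1 had a mean of 181.3 CPM in series 6 and 20.3 CPM in series 2. Prrx2 spread by 4.50-fold, from 30.8 CPM in series 1 to 173.4 CPM in series 7. Snai2 spread by 4.28-fold, from 96.1 CPM in series 5 to 444.7 CPM in series 4. The series 4 mean of Snai2 rests on its highest cell, without which it was 179.5 CPM, and with the highest cell of each series left out the Snai2 spread was 2.86-fold. A 4-fold spread was thus reached by 3 of the 8 factors, while 27.9% of the 8853 genes that passed a filter on low values reached it; the filter asked for detection in 10% of cells, and 8 of 8 factors passed. With 3 of 8 the factors lay close to that background. Each of these spreads rests on single series: that of Twist1 was 3.35-fold without series 2, that of Prrx2 2.26-fold without series 1 and that of Snai2 2.44-fold without series 4. The other spreads were 3.40-fold for Zeb1, 3.29-fold for Twist2, 3.28-fold for Zeb2 and 2.24-fold for Snai1.

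The relation of the factors to Pdgfra, the PDGF receptor of cushion mesenchyme and fibroblasts, to Dcn, a small proteoglycan of fibroblast matrix, and to Acta2, smooth muscle actin, was measured within each series by Spearman's correlation between cells on the log2(CPM + 1) scale. A relation was called where the median over the 7 series was at least 0.2 in size and every series had its sign. The points are cells that share a name series and differ in depth, and no p is given. No factor was called with Pdgfra, Dcn or Acta2, 0 of 8 each. Over all genes the positive calls made up 0.0791% with Pdgfra, 0.203% with Dcn and 1.42% with Acta2, and the negative calls 0.181%, 0.0678% and 0.0339%, so calls were rare for any gene.

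Twist1 came closest, and it leaned towards Dcn and away from Acta2. With Dcn its correlations were 0.42, 0.27, 0.20, 0.32, 0.32, -0.03 and 0.19 in series 1 to 7, with a median of 0.27, and series 6 alone was negative. In series 4, Twist1 was detected in 10 of 11 cells with Dcn and in 18 of 27 without it, at medians of 155.9 and 40.5 CPM. In series 7, Twist1 was detected in 14 of 16 cells with Dcn and in 18 of 28 without. In series 2, the corresponding counts were 13 of 40 and 0 of 8. The share was higher with Dcn in each of the 5 series that had at least 5 cells on both sides. In each of these series the exact intervals of the 2 shares overlapped.

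Taken over all cells as 1 set, the same pair had a correlation of -0.11. Dcn averaged 8419 CPM in series 1 and 46.3 CPM in series 5, where Twist1 averaged 47.1 and 143.03 CPM. The correlation of Twist1 with Dcn was thus positive within 6 of 7 series and negative over all cells as 1 set, which mixes differences within and between series.

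With Acta2, Twist1 had correlations from -0.32 to 0.02, with a median of -0.18 and 6 of 7 series negative. In series 5, Twist1 was detected in 13 of 21 cells with Acta2 and in 12 of 13 without it. In series 6, it was detected in 5 of 9 and in 21 of 25. In series 3 and 7 the share was higher in the cells with Acta2, so the lean was not shared by all series. In cells thinned to 300000 reads the median was -0.23 and was called as negative. The other smooth muscle genes had medians of the same sign with Twist1, at -0.33 for Myl9, -0.19 for Myh11, -0.17 for Tagln and -0.17 for Cnn1, and 0 of 5 were called. Of the 6 fibroblast and cushion genes, 5 had positive medians with Twist1, at 0.36 for Lum, another matrix proteoglycan, 0.27 for Dcn, 0.16 for Postn, 0.12 for Pdgfra and 0.10 for Col3a1. Col1a1 had -0.06, with 6 of 7 series negative, and the collagen gene Col5a1 of the mesenchymal list had -0.12, with 7 of 7 negative.

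Snai2 and Twist2 leaned towards Acta2. Twist2 had the higher median, 0.17, with 5 of 7 series positive, between -0.16 and 0.40. The correlations of Snai2 with Acta2 were positive in 7 of 7 series, between 0.01 and 0.73, with a median of 0.12. In series 3, where the value was 0.73, Snai2 was detected in 11 of 15 cells with Acta2 and in 3 of 23 without it, at medians of 459.6 and 0 CPM. In series 7 the counts were 11 of 23 and 3 of 21. In series 4 and 5, by contrast, the share was slightly lower with Acta2, at 11 of 24 against 7 of 14 and at 5 of 21 against 4 of 13. Over all cells as 1 set the correlation of Snai2 with Acta2 was 0.37. Acta2 correlated with the number of genes with a read in a cell (median 0.23), and so did Snai2 (0.36). Held at a fixed number of genes with a read, the median of Snai2 with Acta2 was 0.14 and not called, and in cells thinned to 300000 reads it was 0.20 and called.

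Prrx2 leaned away from Pdgfra in rank, with a median of -0.15 and 6 of 7 series negative, between -0.33 and 0.08. Detection did not share this lean. Of the series with at least 5 cells on both sides, the Prrx2 share was higher with Pdgfra in 4 and lower in 1. In series 1, Prrx2 was detected in 20 of 48 cells with Pdgfra and in 1 of 10 without it. In series 3, the lower one, the counts were 11 of 27 and 7 of 11. Snai1 and Zeb1 had positive correlations with Dcn in 6 of 7 series each, with medians of 0.18 and 0.14. Twist2 had medians of 0.13 with Dcn and 0.17 with Acta2. Prrx1 and Zeb2 had medians between -0.11 and 0.03 with each of the 3 genes. Between the 3 genes themselves, the medians were -0.23 for Acta2 with Dcn, -0.19 for Acta2 with Pdgfra and 0.10 for Dcn with Pdgfra.

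**Figure D3:**
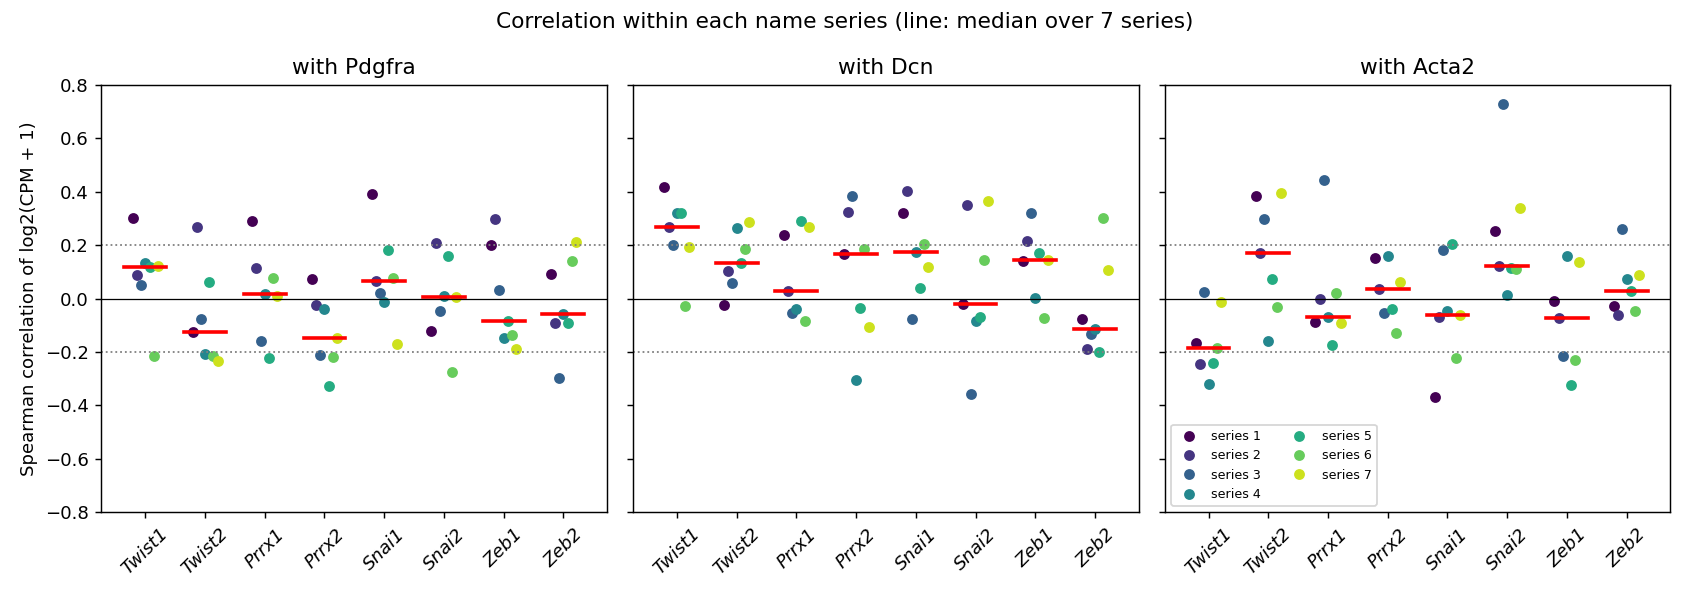
Spearman correlation of each factor with Pdgfra, Dcn and Acta2 within each of 7 name series, 1 point per series, with the median as a red line and dotted lines at 0.2 and -0.2. Points of most factors lie on both sides of 0; Twist1 with Dcn has a median of 0.27 with 1 series below 0, and Snai2 with Acta2 lies above 0 in 7 of 7.

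The factors showed little relation to each other. Over the 28 pairs, the median within-series correlation lay between -0.08 and 0.22, with 22 medians above 0, and 0 pairs were called, where 0.227% of all factor and gene pairs were called as positive and 0.0410% as negative. Twist1 with Prrx2 had the highest median, 0.22, with 6 of 7 series positive. The paralogs were no closer than other pairs: 0.04 for Twist1 with Twist2, 0.03 for Prrx1 with Prrx2, 0.09 for Snai1 with Snai2 and -0.03 for Zeb1 with Zeb2.

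Counts of cells gave the same picture for the paralogs. Zeb1 and Zeb2 were both detected in 90 cells, Zeb1 alone in 68, Zeb2 alone in 68 and neither in 68. The joint share of 30.6% (25.4% to 36.2%) compared with 30.3% from the product of the single shares, taken within each series and summed. Prrx1 and Prrx2 were detected together in 36.7% of cells against a product of 33.6%, with Prrx2 alone in 30 cells and neither in 48. Snai1 and Snai2 shared 65 cells, at 22.1% against 20.5%. Of the 40 cells with Twist2, 24 also had Twist1, a joint share of 8.16% against 7.32%.

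Across all 28 pairs, the joint share exceeded the product in 24, by at most 4.28 points for Prrx2 with Snai1, and fell short by at most 0.347 points. The product lay inside the exact interval of the joint share for 28 of 28 pairs. The interval covers counting error of the joint share alone and treats the product as fixed, although both come from the same cells. It therefore cannot decide whether a single pair departed from the product, and this was not tested.

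**Figure D4:**
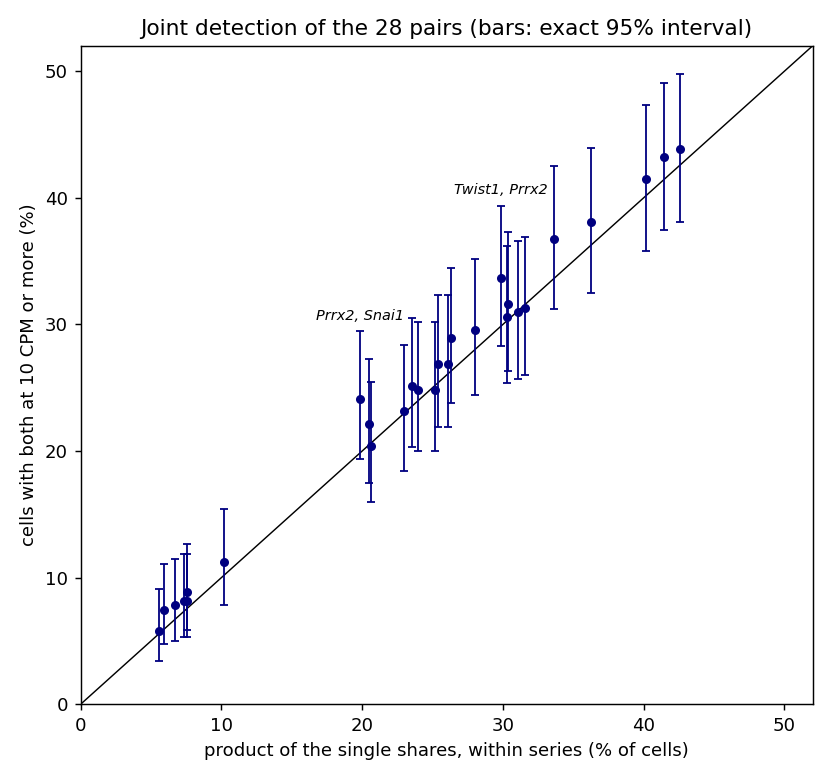
Share of cells with both factors of a pair at 10 CPM or more, in percent, against the product of the single shares within series; 1 point for each of 28 pairs, exact 95% intervals as bars, and the line marks equality. Points lie on or slightly above the line and each bar crosses it; Prrx2 with Snai1 is the farthest above, at 24.1% against 19.9%.

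A cell held a median of 4 of the 8 factors. In 83 cells exactly 4 were detected, in 6 cells none and in 1 cell, of series 1, all 8. The 6 cells with none had 400573 to 2317401 reads, with a median of 713602, and 2259 to 3842 genes with a read, against medians of 1204543 reads and 4406.5 genes over all cells. Of these 6, Postn was detected in 6, Col1a1 in 5, Pdgfra in 4 and Sox10 in 0.

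Partners and cofactors of these proteins were broadly present. Among the E proteins that dimerise with Twist, Tcf4 was detected in 84.7% of cells, Tcf12 in 73.5% and Tcf3 in 44.6%. Hand2, a Twist-related bHLH factor of the heart, was detected in 48.3% and Hand1 in 7.82%. The Id proteins bind E proteins and keep them from DNA, and Id3 was detected in 97.6%, Id2 in 90.8%, Id1 in 66.7% and Id4 in 18.03%. Of 7 corepressors of Snail and Zeb, 6 were detected in at least 50% of cells, from Hdac2 at 84.4% to Ezh2 at 59.2%, with Rcor1 at 31.6% the exception. The related mesenchymal bHLH factors Tcf21 and Scx were detected in 44.6% and 43.5% of cells, and Tcf15 in 1 cell.

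Each factor was paired with 71 listed genes, and over all these pairs 7 were called as positive and 0 as negative, where over all genes 0.227% and 0.0410% of such pairs were called. The 7 were Snai1 with Id2 (0.27) and Lum (0.21), Snai2 with Rcor1 (0.27), Postn (0.21) and Mki67 (0.22), Twist1 with Lef1 (0.28), a nuclear effector of Wnt signalling, and Zeb2 with Smad2 (0.24), a TGF-beta effector. Rcor1 is a subunit of a corepressor complex with Kdm1a, a histone demethylase that Snail proteins recruit. Snai2 with Kdm1a had a median of -0.10. Of 4 other measures (given the total, given the number of genes with a read, in thinned cells, and in the authors' normalised table), Zeb2 with Smad2 and Snai1 with Lum were called under 0, Snai2 with Mki67 under 1, Snai2 with Rcor1 under 2 and Snai2 with Postn under 3. Twist1 with Lef1 and Snai1 with Id2 were called under all 4. Given the number of genes with a read, Snai2 with Rcor1 had a median of 0.16. Of the other 15 listed genes for inducing signals and their receptors, 0 were in such a pair; among them were Tgfb2, detected in 84.01% of cells, Bmp4 in 36.1% and Notch1 in 42.2%.

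Over all genes, the ones most like each factor were few. Named here are the genes with the highest and lowest medians among those with 1 sign in every series, so genes with a larger median but mixed signs, such as Lum and Myl9 for Twist1 or Cdk1 for Snai2 (0.33, positive in 6 of 7 series), are not among them. Twist1 had positive calls with 0.169% and negative calls with 0.181% of genes. Its highest medians were with Vegfc, a growth factor for lymphatic vessels (0.33), the kinase Stk17b (0.31), the proteasome subunit Psmd4 (0.31), the glutamate transporter Slc1a3 (0.30) and Lef1. Its lowest medians were -0.43 with Cxcl12, a chemokine, and -0.29 with Adamts5, a protease that cleaves versican.

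Twist2, with positive calls for 0.0904% of genes and negative for 0.0226%, had its highest medians with Phgdh (0.27), Trim47 (0.25), Nlgn2 (0.24), Ptprb (0.23) and Nup85 (0.23), and its lowest with Gm12657 (-0.28) and Carkd (-0.22). Prrx1, with 0.362% and 0.0226%, had its highest with the mitotic kinesins Kif4 (0.28) and Kif15 (0.25), with 2810417H13Rik (0.27), the histone gene Hist1h2ak (0.26) and the riboflavin kinase gene Rfk (0.25). Its lowest were with Tsc22d1 (-0.25) and Socs3 (-0.23). Prrx2, with 0.226% and 0.0113%, had its highest with the secreted protease Htra1 (0.40), the matrix protein Cthrc1 (0.29), Tmem147 (0.25), Tm2d2 (0.25) and Acadsb (0.25), and its lowest with Kcnq1ot1 (-0.22) and Per1 (-0.19).

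Snai1, with positive calls for 0.147% of genes and negative for 0.0678%, had its highest medians with Tbx20, a T-box factor of the heart and its valves (0.31), with Id2 (0.27), Zfp644 (0.24), Chd9 (0.24) and Serping1 (0.23). Its lowest were with the ribosomal gene Rps21 (-0.24) and Gm6251 (-0.23). Snai2, with 0.474% and 0.0113%, had its highest with Rcor1 (0.27), the alanyl-tRNA synthetase gene Aars (0.27), Myg1 (0.27), Ankrd1, a target of YAP (0.27), and Lsp1 (0.26), and its lowest with Bcl2l11, a cell death gene that encodes Bim (-0.22), and Son (-0.19). Zeb1, with 0.181% and 0.0%, had its highest with Mdfic (0.24), Zbtb21 (0.24), Skp2 (0.24), Tpbg (0.24) and Ap4e1 (0.23), and its lowest with Fam73a (-0.20) and Hotairm1 (-0.17). Zeb2, with 0.169% and 0.0113%, had its highest with Trio (0.30), Sf3b6 (0.27), Iffo2 (0.26), Ccdc86 (0.26) and 2610008E11Rik (0.25), and its lowest with Cntfr (-0.20) and Myrf (-0.17).

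Many of these values were low and rest on sparse counts. Together with the listed genes called, 60 pairs were named, and 15 of them were called under each of the 4 other measures, with cells thinned to 300000 reads. Among these 15 were Twist1 with Stk17b, Lef1, Cxcl12 and Adamts5, Snai1 with Tbx20 and Id2, Snai2 with Aars and Lsp1, and Prrx1 with 2810417H13Rik and Tsc22d1. In thinned cells 22 of the 60 were called, and 10 were called under none of the 4. Some of the 60 were not called in the main run, with medians under 0.2 in size. These were Prrx2 with Per1, Snai2 with Son, Zeb1 with Fam73a (-0.195) and Hotairm1, and Zeb2 with Myrf. Zeb1 with Fam73a was called under all 4 other measures and the rest of these under none.

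Cells with Mki67, a marker of cycling cells, held Snai2 more often. Mki67 was at 10 CPM or more in 94 cells and below it in 200. Snai2 was detected in 65.96% of the first (55.5% to 75.4%) and 38% of the second (31.2% to 45.1%), and the share was higher in 7 of 7 series. Zeb2 was detected in 67.02% against 47.5%, higher in 6 of 7 series, and Prrx1 in 80.9% against 70%, higher in 5 of 7. Zeb1 was detected in 63.8% against 49%, but the share was higher in 3 series and lower in 4. The median correlation of Prrx1 with Mki67 was 0.22, with 6 of 7 series positive, and it was not called. Twist1 hardly differed, at 60.6% and 58.5%, and Prrx2 was lower with Mki67, at 41.5% against 49.5%. Snai2 also correlated with the number of genes with a read in a cell, with a median of 0.36 over the series. Given that number, the correlation of Snai2 with Mki67 went from 0.22 to 0.10 and was not called.

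Sox10, which marks glia and their precursors of neural crest origin, was at 10 CPM or more in 14 cells, 11 of them in series 1 and 2 and 1 each in series 3, 6 and 7. Of these 14 cells, 11 also had at least 2 other glia markers, and their median total was 1513612 reads against 1201404 in the other 280 cells. Twist1 was low in these cells, whereas Prrx1, Zeb1 and Zeb2 were present in most of them. Twist1 ranged from 0 to 75.97 CPM in the Sox10 cells, with a median of 0.888, against a median of 34.03 CPM in the others. It was detected in 4 of 14, or 28.6% (8.39% to 58.1%), against 60.7% (54.7% to 66.5%).

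Prrx1 ranged from 23.6 to 310.9 CPM in the Sox10 cells and was detected in 14 of 14, against 72.1% of the others. Zeb2 ranged from 0 to 560.2 CPM with a median of 114.2, and it was detected in 11 of 14, or 78.6% (49.2% to 95.3%), against 52.5% (46.5% to 58.5%). The intervals of Zeb1 and of Zeb2 overlapped. Those of Prrx1 overlapped narrowly, with a lower bound of 76.8% in Sox10 cells and an upper bound of 77.3% in the others. Within series 1 and 2 alone, Prrx1 was detected in 11 of 11 Sox10 cells (71.5% to 100%). In the 95 others there it was detected in 84.2% (75.3% to 90.9%), so these intervals overlapped widely. Zeb2 was detected there in 10 of 11 and in 55 of 95, and Zeb1 in 7 of 11 and in 72 of 95, a lower share for Zeb1.

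With 10 CPM added to both means, the ratio of Sox10 cells to others was 0.176 for Twist1, 0.415 for Twist2 and 0.447 for Prrx2. These 3 of 8 factors were at or under a ratio of 0.5, as were 15.0% of 8853 genes. The ratio was 0.518 for Snai1, 0.563 for Snai2, 0.648 for Zeb1, 0.767 for Prrx1 and 1.51 for Zeb2. No factor was at 2 or more, a ratio that 6.44% of genes reached. Twist1 was lower without any 1 series too, with ratios of 0.13 to 0.21. Without series 2, which held 6 of the Sox10 cells, Twist1 was the only factor at or under 0.5, and without series 1 there were 5. The share of all genes at or under 0.5 was not computed with a series left out, so these counts have no background. With the highest Sox10 cell of each gene left out, the Prrx2 ratio was 0.240, and Snai1 at 0.365 and Snai2 at 0.452 were under 0.5 too, which made 5 of 8 where 32.6% of genes were. With the highest cell left out on both sides, 4 of 8 were, at 27.6% of genes. Within series 1 and 2 alone, Twist1 was detected in 2 of 11 Sox10 cells and in 41 of 95 others, and Snai2 in 3 of 11 and in 67 of 95. Pdgfra, at a ratio of 0.367, Col1a1, at 0.361, and Acta2, at 0.340, were lower in the Sox10 cells as well. Dcn, at 1.22, and Postn, at 1.29, were not, but both rest on 1 high Sox10 cell. Without it the mean in Sox10 cells went from 5756 to 3655 CPM for Postn, against 4444 in the others. For Dcn it went from 3370 to 1929 CPM, against 2759.

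**Figure D5:**
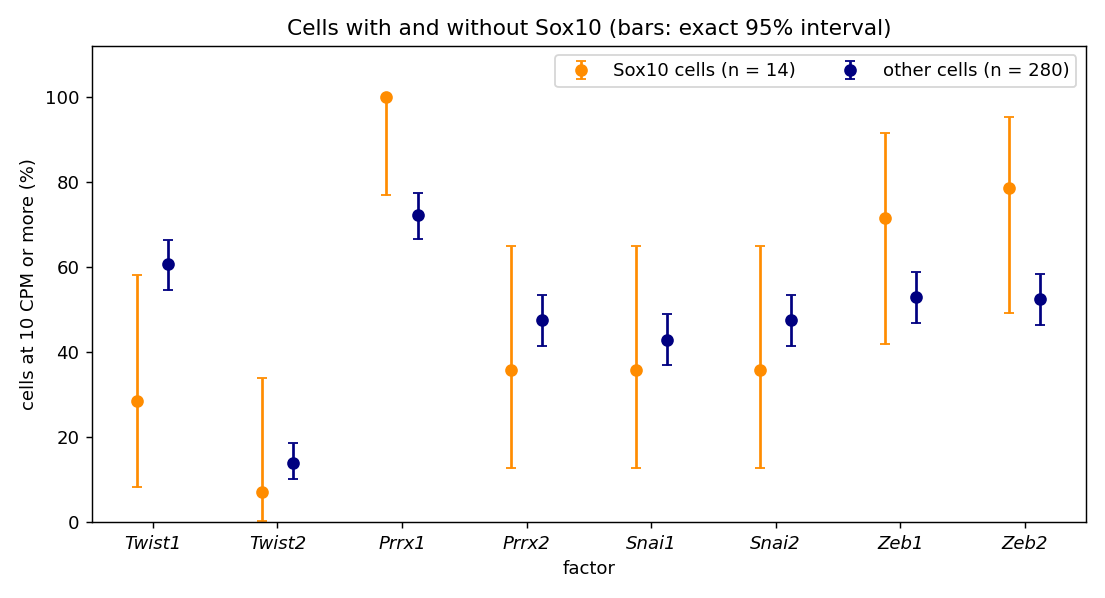
Share of cells with each factor at 10 CPM or more, in percent, in 14 cells with Sox10 and 280 without, with exact 95% intervals as bars. Prrx1 is at 100%, Zeb2 at 78.6% and Zeb1 at 71.4% in the Sox10 cells, and Twist1 at 28.6% against 60.7% in the others.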

How the data were processed

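Single cells were captured on a Fluidigm C1 chip, and cDNA was made with a SMARTer kit, per the labels' protocols. The submitters' processing notes name HISAT2 2.1.0, featureCounts, Seurat and the build mm10, and which annotation and strand setting were used is not given in the sources used here. The authors deposited raw counts, whole numbers of reads per gene and cell for 15124 genes. They also deposited a table named SCT for 14051 genes, which was treated as a score and used only as an alternative.

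Counts were scaled to CPM. Relations used Spearman's correlation of log2(CPM + 1) within name series. Genes named are the 8 factors, the genes of the lists and, per factor, the 5 genes at the top and the 2 at the bottom by median correlation, out of genes with 1 sign in every series. No p-value was computed. Thinning drew 300000 reads per cell with seed 0. The members and lists were chosen with earlier results of these data known. Scripts were tested on simulated data with Python 3.11.15, numpy 2.4.6, pandas 2.3.3 and scipy 1.17.1. Of the columns, 0 were identical. Alternatives covered the detection level, depth, table, measure, gene filter and each name series left out. The per-length values with the longest transcript, series 1 and 2 alone for Sox10 and the highest cells left out (by series, and in the Sox10 comparison) were added after seeing the data.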

Additional observations from a re-analysis of the deposited data

How the results depend on the processing

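The number of factors in at least 50% of cells was 4, became 1 at 100 CPM, 7 at 1 read and 7 in the SCT table, and lay between 3 and 5 with each name series left out. The share of all genes was computed only for the main setting, at 14.4%. The counts in the other settings therefore have no background and cannot be read as a trait of the factors. The number with a 4-fold spread was 3, became 5 with medians in place of means, where 24.7% of genes reached it, and lay between 2 and 3 with each series left out. With all cells as 1 set, 1 factor was called with Pdgfra (Twist1), 2 with Dcn (Snai2, Zeb1), 1 with Acta2 (Snai2), and 1 pair was called (Twist1 with Prrx2). With Dcn, 1 was called by Pearson's correlation of log2(CPM + 1) (Twist1), 1 by that of log2(CPM + 10) (Snai1), 1 given the total (Twist1) and 1 given the number of genes with a read (Twist1). The shares of genes called with Dcn in these settings were 0.294%, 0.271%, 0.282% and 0.328%. In cells thinned to 300000 reads, which left out 33 cells, 2 were called with Acta2 (Twist1 as negative, Snai2 as positive), as were 1.3% of genes. Leaving out each series gave 0 to 0 calls with Pdgfra, 0 to 1 with Dcn (Twist1, without series 6), 0 to 1 with Acta2 (Twist1, without series 3) and 0 to 1 pairs (Twist1 with Prrx2, without series 5). Without series 6, 0.429% of genes were called with Dcn, and without series 3, 1.67% with Acta2. The number lower in Sox10 cells was 3, became 5 with Sox10 at 100 CPM or more and 5 without the highest Sox10 cell of each gene, and lay between 1 and 5 with each series left out. The share of genes was 15.0% in the main run and 32.6% without the highest Sox10 cell. It was not computed at 100 CPM or with a series left out. The cause of these changes was not tested. No factor was called with the 3 genes and no pair was called in the main run, so an alternative had no called sign to turn. Uncalled signs did turn with all cells as 1 set, for example from 0.27 to -0.11 for Twist1 with Dcn. Prrx2 with Dcn went from 0.17 to -0.05, some others turned as well, and the rest kept their sign. No paired analysis was possible because all cells form 1 group and the labels give no replicate numbers that pair cells. At 14 Sox10 cells and sparse counts, small differences in share were not detectable.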

Other observations

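Other genes of the neural crest programme were unevenly present. Sox9 was detected in 85.4% of cells, Sox5 in 48.98% and Ets1 in 31.6%. Tfap2a was detected in 15.3%, Msx1 in 8.16%, Foxd3 in 3.06% and Pax3 in 0.340%, so 5 of 11 measured genes of this list were under 5% of cells, and Sox9 was the only one at 50% or more.

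Markers of other cell types were mostly rare. Of 5 melanocyte genes measured, 5 were under 5% of cells, and of 5 neuronal genes 4 were, with Tubb3 at 19.7%. Of 6 cardiomyocyte genes 4 were under 5%, with Tnnt2 at 19.4% and Actc1 at 16.3%. Of 3 endothelial genes 1 was, with Tek at 29.6%, and of 3 epicardial genes 1 was, with Tbx18 at 51.7%. The part of such cells or RNA in the levels of the 8 factors was not tested.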
